A study of Mus musculus with 15 samples.

Results

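A set of 10 genes of the granulocyte programme was followed in mouse LSK cells. They were Mpo, Elane, Ctsg, Prtn3, Ms4a3, Cebpa, Cebpe, Camp, Ngp and Fcnb, which is 10 of the 22180 genes measured. Each was taken by its gene symbol from the probe sets that carry exactly 1 symbol, and each has 1 such probe set. The set joins products of granulocyte granules, a membrane protein of early granulocyte progenitors and 2 transcription factors of the C/EBP family.

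LSK cells are bone marrow cells that lack lineage markers and carry Sca-1 and Kit, a population that holds the blood stem cells and the earliest progenitors. The study had 3 groups of 5 arrays. The first was kept for 18 h in Myelocult M5300 medium with extracellular vesicles (EV) derived from AFT cells, known from outside these data as a stromal line that supports blood stem cells. The second spent 18 h in the same medium without EV, and the third was taken after sorting with no culture (non-cultured). No genotype, strain, age or agent other than EV is given in the labels, and no number of animals per array. Non-cultured cells differ from both cultured groups by the whole culture, so medium, time and handling cannot be told apart, and no EV dose is given. RNA was labelled from 500 pg of total RNA per sample for Affymetrix Mouse Gene 2.0 arrays. The samples are described as biological replicates with no animal named, so the p-values measure the spread between these samples.

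All values are on the deposited log2 scale, where a difference of 1 is a 2-fold change of signal. Array medians lay between 4.62 and 4.74. Mean correlation with the other 4 arrays of the group was 0.928 for the with EV array of replicate 1, and 0.943 to 0.961 for the other 14 arrays. Kit lay between 9.25 and 10.09 and Cd34, another progenitor surface marker, between 10.24 and 10.70 over the 15 arrays. Ly6a, which encodes Sca-1, was not analysed here. A probe set's level depends on its probes, so levels are compared between groups and not between genes.

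Neutrophil granules are filled in order as granulocytes mature. Primary granules come first, at the promyelocyte stage, and hold myeloperoxidase and the serine proteases elastase, cathepsin G and proteinase 3. Specific granules follow and hold antimicrobial proteins such as cathelicidin. C/EBPα directs progenitors into the granulocyte and monocyte lineages, and C/EBPε is needed later for the specific granule genes. Stem and progenitor cells before this step already carry some transcripts of Mpo and its neighbours in the programme.

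The sequences upstream of 5 of the genes are shown because these genes include the 4 whose level differed between cultured and non-cultured cells, together with Elane, which lies beside Prtn3. RefSeq (assembly GRCm38.p6) gave an upstream sequence for 9 of the 10 genes. Each printed run ends at the base before the gene's start. It covers 250 bases, except for Fcnb, where 218 bases are printed and 32 were left out because they lie inside the annotated span of the gene. Capitals mark matches to 4 short motifs, searched on both strands: GAGGAAG for PU.1, TTGCNNAA for C/EBP, TGTGGT for RUNX factors and AACGG for MYB.
Mpo, chr11:87793534-87793783, plus strand: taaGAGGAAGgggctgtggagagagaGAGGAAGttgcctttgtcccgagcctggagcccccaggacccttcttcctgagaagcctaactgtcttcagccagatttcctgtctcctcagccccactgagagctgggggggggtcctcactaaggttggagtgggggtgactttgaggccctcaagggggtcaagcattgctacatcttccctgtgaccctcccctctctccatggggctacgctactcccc
Elane, chr10:79886062-79886311, plus strand: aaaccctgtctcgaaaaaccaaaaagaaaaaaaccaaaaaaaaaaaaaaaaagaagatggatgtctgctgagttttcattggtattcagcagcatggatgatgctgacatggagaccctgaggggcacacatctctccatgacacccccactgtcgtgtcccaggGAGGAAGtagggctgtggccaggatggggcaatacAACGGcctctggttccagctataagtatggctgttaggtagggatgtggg
Prtn3, chr10:79879417-79879666, plus strand: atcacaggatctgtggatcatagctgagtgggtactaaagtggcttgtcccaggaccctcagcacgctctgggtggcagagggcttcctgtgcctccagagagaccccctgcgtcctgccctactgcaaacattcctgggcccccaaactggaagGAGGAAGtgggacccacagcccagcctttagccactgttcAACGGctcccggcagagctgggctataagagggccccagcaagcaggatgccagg
Ngp, chr9:110419558-110419807, plus strand: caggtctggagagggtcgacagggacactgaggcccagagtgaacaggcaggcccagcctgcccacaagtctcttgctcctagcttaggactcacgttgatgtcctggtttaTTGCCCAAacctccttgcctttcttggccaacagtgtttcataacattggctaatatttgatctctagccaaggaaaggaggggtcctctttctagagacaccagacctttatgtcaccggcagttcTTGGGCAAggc
Fcnb, chr2:28084911-28085128, minus strand: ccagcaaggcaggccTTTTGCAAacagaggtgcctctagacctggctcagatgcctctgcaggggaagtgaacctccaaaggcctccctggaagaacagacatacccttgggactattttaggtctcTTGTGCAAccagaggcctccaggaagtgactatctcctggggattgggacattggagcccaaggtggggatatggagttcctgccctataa

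The PU.1 letters stood in the windows of Mpo, Elane, Ctsg and Prtn3, the peroxidase and the 3 serine proteases of primary granules. In the Mpo window they occurred at 247 and 224 bases before the start. Elane and Prtn3 are neighbours on chromosome 10 with 0 annotated genes between them, and their windows held the same motif pair in the same order. Elane had PU.1 letters at 85 and MYB letters at 50 bases before the start, and Prtn3 had them at 95 and 55 bases. The C/EBP letters stood in the windows of Ngp, at 138 and 11 bases before the start, and of Fcnb, at 203 and 91 bases before the end of the printed run. Among 32851 promoter windows of this length, 10.6% held the PU.1 letters, 9.56% the C/EBP letters, 14.5% the MYB letters and 14.0% the RUNX letters. The RUNX letters occurred in the Ctsg window and the MYB letters also in that of Cebpa. No 2 motif matches overlapped, and a match describes the letters and not binding.

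In the comparison of EV with no EV, which asks what the vesicles changed in cultured cells, 0 of the 10 genes passed limma's test at an adjusted p of 0.05. Over all genes 0.198% passed, 0.180% higher with EV (40 genes) and 0.0180% lower (4 genes). At an unadjusted p under 0.05 the count was again 0 of 10 genes, beside 792 higher and 721 lower among all genes. In 0 of the 10 genes were the 2 groups free of overlap, beside 1.20% of all genes, 0.762% higher and 0.437% lower with EV. The 95% intervals of the difference give the sizes that these arrays leave possible, and they differ widely between genes.

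Mpo encodes myeloperoxidase, the enzyme that makes hypochlorous acid in primary granules. It was at 9.65, 9.65, 9.74, 10.13 and 9.55 with EV, and at 9.63, 9.52, 9.76, 9.74 and 9.67 without EV. The groups overlapped, and replicate 4 with EV was the highest of the 10 cultured arrays. The difference was 0.08, with a 95% interval from -0.17 to 0.32 (limma adjusted p = 0.927). Prtn3, the gene of proteinase 3, had a difference of 0.07 with an interval from -0.25 to 0.39.

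Elane encodes neutrophil elastase. It was at 9.20, 8.32, 8.18, 8.28 and 7.62 with EV, and at 8.68, 8.71, 8.83, 8.72 and 8.64 without EV. The arrays without EV lay within a narrow band. Replicate 1 with EV lay above that band and the other arrays with EV lay below it. Of the 25 pairs, 20 had the array with EV lower. The SD was 0.56 with EV and 0.07 without EV (n = 5 each), and the difference of -0.40 had an interval from -0.93 to 0.14 (limma adjusted p = 0.791).

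Ctsg encodes cathepsin G, a serine protease of the same granules. It was at 7.99, 8.83, 8.46, 8.75 and 8.71 with EV, and at 8.16, 9.23, 8.56, 8.65 and 8.23 without EV. The groups overlapped over most of their range, and replicate 1 was the lowest of each. The level averaged 8.55 ± 0.34 with EV and 8.57 ± 0.43 without EV (SD, n = 5 each), a difference of -0.02 with an interval from -0.50 to 0.46.

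Ms4a3 encodes a membrane protein used to mark granulocyte and monocyte progenitors. It was at 5.94, 6.62, 6.35, 6.10 and 5.55 with EV, and at 6.17, 6.57, 6.35, 6.28 and 6.18 without EV. As for Elane, the arrays with EV spread to both sides of those without EV. The level averaged 6.11 ± 0.41 with EV and 6.31 ± 0.16 without EV (SD, n = 5 each), a difference of -0.20 with an interval from -0.68 to 0.28.

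Cebpe was at 5.67, 5.20, 5.32, 6.68 and 5.10 with EV, and at 5.38, 5.11, 5.20, 5.44 and 5.17 without EV. Replicate 4 with EV stood above the other 9 cultured arrays, as it did for Mpo, and the rest overlapped. The difference of 0.33 had an interval from -0.18 to 0.84. Cebpa was at 6.14, 6.38, 5.99, 6.02 and 6.59 with EV, and at 6.29, 6.23, 6.14, 6.59 and 6.47 without EV. The groups overlapped, and the difference of -0.12 had an interval from -0.47 to 0.23.

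The intervals were widest for Camp and Ngp, which encode cathelicidin and neutrophilic granule protein of the specific granules. Camp was at 6.37, 5.07, 5.52, 5.24 and 6.33 with EV, and at 7.08, 6.49, 6.22, 5.41 and 4.87 without EV. The groups overlapped, with the lowest and the highest of the 10 arrays both in the group without EV. The difference was -0.31, with an interval from -1.34 to 0.72. For Ngp it was -0.25, with an interval from -1.33 to 0.82. The intervals of all 10 genes rest on a spread pooled over the 3 groups. They thus also carry the spread of the non-cultured arrays, which lie outside this comparison. For Ngp the SD in those arrays was 1.48. Fcnb encodes ficolin-B, a lectin that recognises microbial sugars, and its difference was -0.18 with an interval from -0.60 to 0.24. All of these intervals include differences of either sign.

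**Figure D1:**
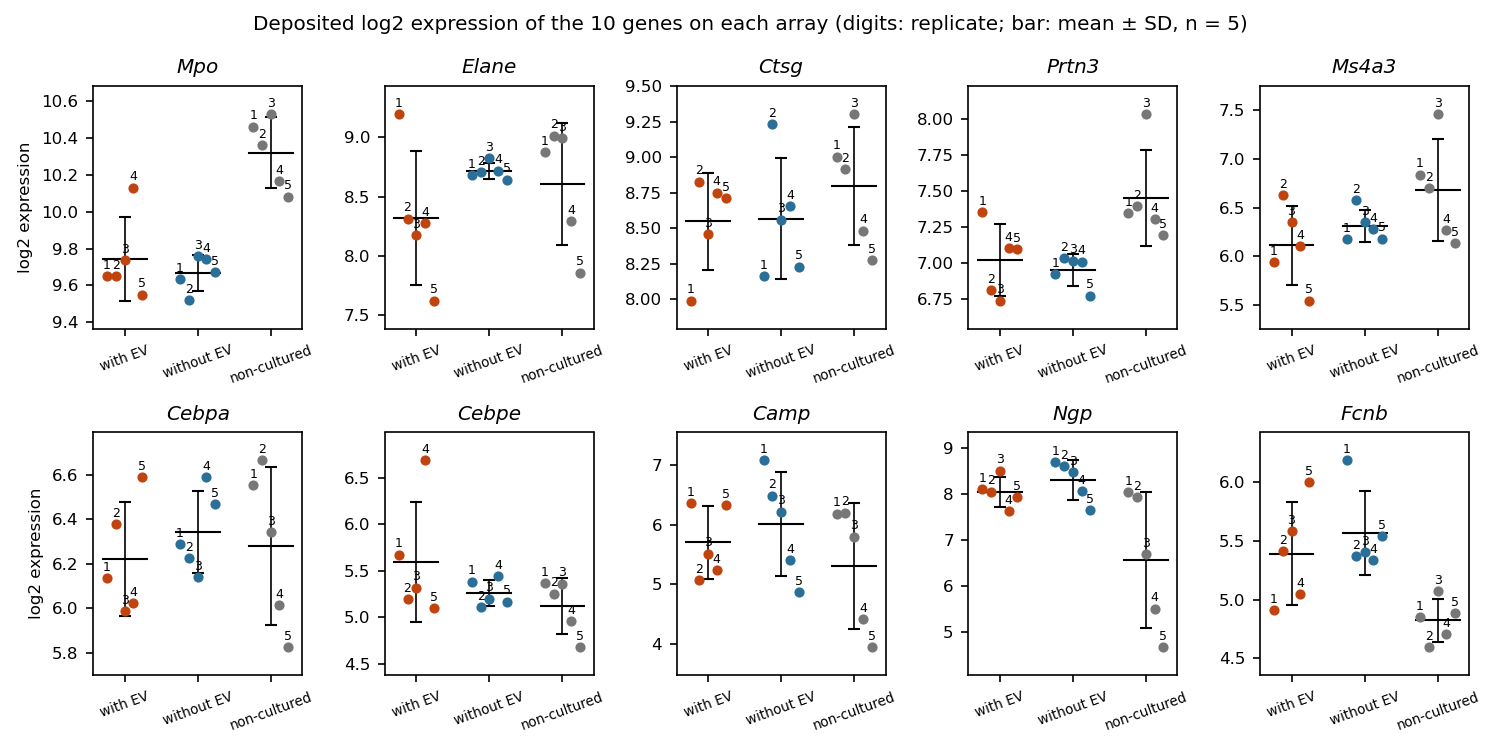
Each panel plots the log2 signal of 1 gene (y axis) for the 5 arrays with EV, the 5 without EV and the 5 non-cultured arrays (x axis), with a point for each array marked by its replicate number, a horizontal bar for the group mean and whiskers of 1 SD. The Mpo points without EV lie between 9.52 and 9.76, below all 5 non-cultured points, and the Ngp points of the non-cultured group spread between 4.68 and 8.04.

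Culture without EV, set against non-cultured cells, was accompanied by differences in both directions. Of the 10 genes, 2 were lower and 2 higher by limma at an adjusted p of 0.05, beside 6.88% lower and 6.75% higher among all genes (13.6% in either direction). Mpo and Prtn3, of the primary granules, were lower. Ngp, of the specific granules, and Fcnb were higher. The groups did not overlap in 3 of the 10 genes, Mpo and Prtn3, beside 6.10% of all genes lower, and Fcnb, beside 5.89% higher (12.0% in either direction). The test is over arrays of a mixed population, where a change in the share of cells that carry a transcript and a change of transcript per cell cannot be told apart.

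Mpo was at 9.63, 9.52, 9.76, 9.74 and 9.67 without EV, against 10.46, 10.36, 10.53, 10.17 and 10.08 in non-cultured cells. All 5 arrays without EV lay below all 5 non-cultured arrays, of which replicates 4 and 5 were the lowest. The difference was -0.66 (SE 0.12, limma adjusted p = 0.000989), a level 1.58-fold lower. It was called in all 23 alternative fits, and was -0.79 with non-cultured replicates 4 and 5 left out.

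Prtn3 was at 6.93, 7.04, 7.02, 7.01 and 6.78 without EV, against 7.35, 7.39, 8.04, 7.30 and 7.19 in non-cultured cells. The groups did not overlap, and non-cultured replicate 3 stood above the other 4 of its group. The difference was -0.50 (SE 0.15, limma adjusted p = 0.0344), a level 1.42-fold lower. It passed in 14 of 23 alternative fits. The call was lost when any 1 of the 5 arrays without EV, or non-cultured replicate 2 or 3, was left out, with adjusted p between 0.0506 and 0.0844.

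Ngp was at 8.69, 8.61, 8.48, 8.06 and 7.66 without EV, against 8.04, 7.93, 6.69, 5.51 and 4.68 in non-cultured cells. Non-cultured replicates 1 and 2 reached the level of the cultured arrays and replicates 4 and 5 lay far below them. Of the 25 pairs of a cultured and a non-cultured array, 23 had the cultured one higher. The difference was 1.73 (SE 0.51, limma adjusted p = 0.0319), a level 3.31-fold higher. With non-cultured replicates 4 and 5 left out it was 0.74 (adjusted p = 0.158), and the call was lost also without any 1 of non-cultured replicates 3, 4 and 5 or replicates 1, 2 and 3 without EV, at adjusted p between 0.0540 and 0.0822.

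Fcnb was at 6.19, 5.37, 5.40, 5.34 and 5.54 without EV, against 4.85, 4.59, 5.07, 4.71 and 4.88 in non-cultured cells. The groups did not overlap, and replicate 1 without EV was the highest. The difference was 0.75 (SE 0.20, limma adjusted p = 0.0181), a level 1.68-fold higher. It was called in 22 of 23 alternative fits. The exception left out non-cultured replicates 4 and 5, with a difference of 0.73 (adjusted p = 0.073).

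Camp lies on the same chromosome as Ngp and serves in the same granules, but did not pass the test. It was at 7.08, 6.49, 6.22, 5.41 and 4.87 without EV, against 6.19, 6.20, 5.80, 4.42 and 3.95 in non-cultured cells. Replicates 4 and 5 were the lowest in both groups, which overlapped. The difference of 0.70 had a limma adjusted p of 0.446, and was -0.05 without non-cultured replicates 4 and 5.

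The other 2 proteases of the primary granules did not pass. Elane lay between 8.64 and 8.83 without EV, against 8.88 to 9.01 in non-cultured replicates 1 to 3 and 8.30 and 7.86 in non-cultured replicates 4 and 5. Non-cultured arrays therefore lay on both sides of all 5 arrays without EV. The difference was 0.11 (limma adjusted p = 0.873), and was -0.25 without non-cultured replicates 4 and 5. Ctsg averaged 8.57 ± 0.43 without EV, against 8.80 ± 0.41 in non-cultured cells (SD, n = 5 each), where it ran from 8.27 to 9.30. The groups overlapped, and the difference was -0.23 (limma adjusted p = 0.643), or -0.51 without those 2 arrays (adjusted p = 0.221).

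Ms4a3 and the 2 C/EBP factors did not pass either. Ms4a3 averaged 6.31 ± 0.16 without EV and 6.68 ± 0.52 in non-cultured cells, a difference of -0.37 (limma adjusted p = 0.373). It was -0.69 without non-cultured replicates 4 and 5 (adjusted p = 0.0598). Cebpa was at 6.29, 6.23, 6.14, 6.59 and 6.47 without EV, against 6.55, 6.67, 6.34, 6.01 and 5.83 in non-cultured cells. The groups overlapped, with non-cultured arrays on both sides of the cultured ones. The Cebpa difference was 0.06 (adjusted p = 0.887), and -0.18 without non-cultured replicates 4 and 5. Cebpe was at 5.38, 5.11, 5.20, 5.44 and 5.17 without EV, against 5.37, 5.25, 5.36, 4.95 and 4.68 in non-cultured cells. Those groups overlapped too, and the Cebpe difference was 0.14 (adjusted p = 0.821), and -0.067 without those 2 arrays (adjusted p = 0.945).

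**Figure D2:**
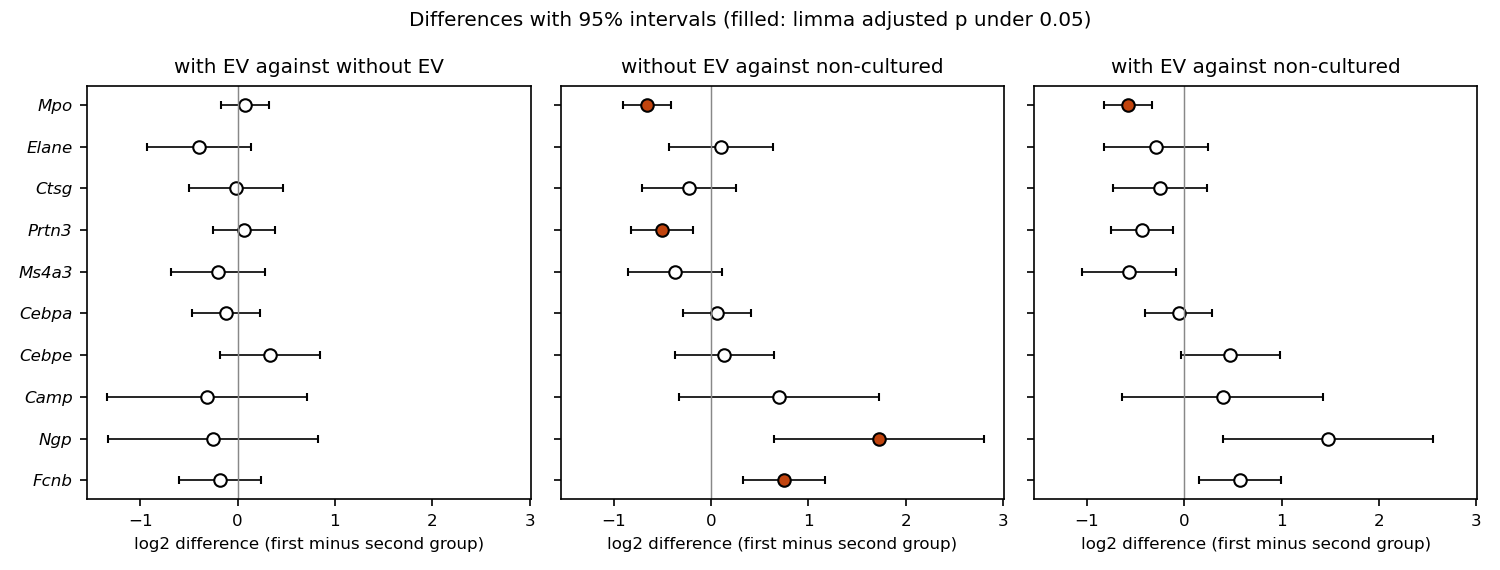
The log2 difference of each gene (x axis) is plotted with its 95% interval for with EV against without EV, without EV against non-cultured and with EV against non-cultured cells, with filled points for genes called at an adjusted p of 0.05. All 10 intervals of the EV comparison include 0, and the filled points are Mpo in both comparisons with non-cultured cells and Prtn3, Ngp and Fcnb in the one without EV.

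Culture with EV, set against the same non-cultured arrays, gave 1 of the 10 genes lower and 0 higher, beside 7.85% lower and 6.28% higher among all genes (14.1% in either direction). At an unadjusted p under 0.05 there were 2 higher and 3 lower, beside 2914 higher and 2848 lower among all genes. Groups without overlap numbered 0 of 10, beside 11.2% of all genes, 5.06% higher and 6.18% lower. The gene that passed was Mpo, with a difference of -0.58 (limma adjusted p = 0.00266), a level 1.49-fold lower, and it passed in all 23 alternative fits. Of the 25 pairs, 24 had the array with EV lower, and the other pair involved replicate 4 with EV.

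The other 3 genes that passed in the comparison without EV did not pass here. The 2 comparisons share the non-cultured arrays, so their values are not independent. Prtn3 was at 7.35, 6.81, 6.74, 7.11 and 7.10 with EV, against 7.35, 7.39, 8.04, 7.30 and 7.19 in non-cultured cells. The groups overlapped through replicate 1 with EV. The difference was -0.43 (limma adjusted p = 0.0674). It passed with non-cultured replicates 4 and 5 left out, at -0.57 (adjusted p = 0.0403), and with replicate 1 with EV or non-cultured replicate 5 left out, at adjusted p of 0.0311 and 0.0471. Non-cultured replicates 4 and 5 were the lowest of their group, so leaving them out had to make the difference more negative.

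Ngp was at 8.10, 8.05, 8.51, 7.63 and 7.93 with EV, against 8.04, 7.93, 6.69, 5.51 and 4.68 in non-cultured cells. The arrays with EV lay at the level of non-cultured replicates 1 and 2. The difference was 1.47 (limma adjusted p = 0.0661), and 0.49 with non-cultured replicates 4 and 5 left out (adjusted p = 0.388). Leaving out non-cultured replicate 1 or 2 alone brought it past the threshold, at 1.81 to 1.84 with adjusted p between 0.0197 and 0.0238.

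Fcnb was at 4.91, 5.41, 5.59, 5.05 and 6.004 with EV, against 4.85, 4.59, 5.07, 4.71 and 4.88 in non-cultured cells. The groups overlapped, with non-cultured replicate 3 above replicates 1 and 4 with EV. The difference was 0.57 (limma adjusted p = 0.0697). It passed when replicate 1 with EV or replicate 1 without EV was left out, at adjusted p between 0.0281 and 0.0358.

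Ms4a3 was at 5.94, 6.62, 6.35, 6.10 and 5.55 with EV, against 6.84, 6.70, 7.46, 6.27 and 6.14 in non-cultured cells. Non-cultured replicates 4 and 5 lay within the range with EV, and the other 3 lay above it. The difference was -0.57 (limma adjusted p = 0.117) and, with those 2 arrays left out, -0.89 (adjusted p = 0.0159). Those 2 were the lowest of their group, so leaving them out had to lower the difference, and the second value is no independent support. The differences of Elane, at -0.29, Ctsg, at -0.25, Cebpa, at -0.06, Cebpe, at 0.47, and Camp, at 0.39, did not pass, with limma adjusted p between 0.234 and 0.876. With those 2 arrays left out they were -0.64 for Elane, -0.53 for Ctsg, -0.30 for Cebpa, 0.27 for Cebpe and -0.36 for Camp. None of the 5 passed then either (adjusted p between 0.105 and 0.698).

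The rest of the granule programme was read from lists of partner genes, with both cultured groups set against the non-cultured arrays. With all arrays, the counts of this and the following lists stand beside 6.28% higher and 7.85% lower among all genes with EV. Without EV these shares were 6.75% and 6.88%. With non-cultured replicates 4 and 5 left out, 1170 of 22180 genes were higher and 1528 lower with EV, and 1289 higher and 1310 lower without EV. Some genes stand in more than 1 list, among them Hp, Ly6c2, Csf1r, Irf8, Kit and Flt3, so the list counts are not independent. Among 11 measured partners of the primary granules, 2 were higher and 1 lower with EV, and 3 were higher and 2 lower without EV. Lyz2, lysozyme of granulocytes and macrophages, was higher by 1.83 with EV and by 1.78 without EV. Cd63, a membrane protein of granules and late endosomes, was higher by 1.39 with EV and by 1.47 without EV. Both of these stood above non-cultured cells while Mpo stood below them.

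Nkg7, a granule membrane protein of cytotoxic cells, was lower than in non-cultured cells, with differences of -2.18 with EV and -2.11 without EV. Prss57, a serine protease of neutrophil granules, had a difference of -0.38 with EV that did not pass and of -0.56 without EV that did (limma adjusted p = 0.101 and 0.0155). Ctsc, the protease that activates elastase, cathepsin G and proteinase 3, had a difference of 0.47 with EV (adjusted p = 0.112) and was higher by 0.86 without EV (adjusted p = 0.00448). The primary granule partners thus held genes above and genes below the non-cultured level.

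The list named for specific and gelatinase granules has 21 genes, and not all encode granule proteins. It includes S100a8 and S100a9, which were among the higher calls, and Padi4, which was the lower one. Of the 21 genes, 8 were higher and 1 lower with EV than in non-cultured cells, with a median difference of 0.38, beside 0.04 over all genes. Without EV 10 were higher and 1 lower, with a median of 0.47, beside 0.01 over all genes. The mean level of the list was 6.10 to 6.60 with EV, 6.20 to 6.75 without EV and 4.78 to 5.41 in non-cultured arrays. The list level of the cultured arrays did not overlap that of the non-cultured ones. A few genes with large differences, such as Chil3 and Mmp8, can carry such a mean, and the median differences were 0.38 and 0.47. Chil3, a chitinase-like secreted protein, differed by 5.25 with EV and 5.26 without EV. Mmp8, neutrophil collagenase, differed by 3.99 with EV and 4.32 without EV. Hp, haptoglobin, differed by 2.67 with EV and 2.62 without EV, and Lcn2, which binds bacterial siderophores, by 1.98 and 1.89 in the same order.

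Other genes of this list did not follow. Ltf, lactoferrin, is a defining protein of specific granules, and its differences were 0.00 with EV and 0.14 without EV (limma adjusted p = 0.999 and 0.836). Padi4, which citrullinates histones in neutrophils, was lower, at -0.81 with EV and -0.71 without EV (adjusted p = 0.00539 and 0.0136). With non-cultured replicates 4 and 5 left out the list counts were 8 higher and 1 lower with EV, and 8 higher and 0 lower without EV, where Padi4 no longer passed (adjusted p = 0.106).

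S100a8 and S100a9 encode the 2 subunits of calprotectin, an abundant cytosolic protein of neutrophils and monocytes. S100a8 was at 10.96, 10.81, 10.85, 10.31 and 10.60 with EV and at 11.08, 10.87, 10.99, 10.59 and 10.42 without EV, against 9.37, 9.20, 9.28, 5.92 and 6.42 in non-cultured cells. Non-cultured replicates 4 and 5 stood far below the other 3, which were themselves below all 10 cultured arrays. The S100a8 difference from non-cultured cells was 2.67 with EV and 2.75 without EV. With those 2 arrays left out it was 1.42 with EV and 1.50 without EV, and it passed each time (limma adjusted p = 6.66e-05 and 4.22e-05 with them left out). The S100a9 difference was 2.42 with EV and 2.43 without EV, and 1.22 and 1.23 with those arrays left out, all past the threshold.

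**Figure D3:**
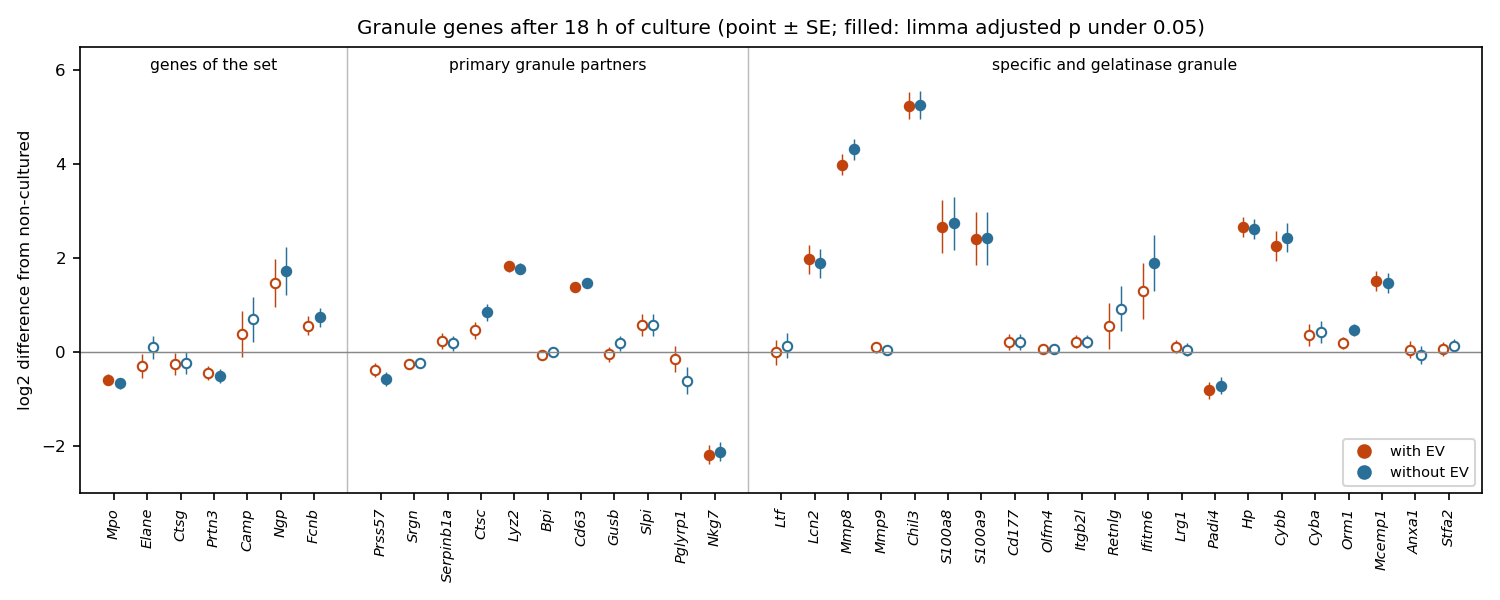
The log2 difference from non-cultured cells (y axis) is shown for the granule genes of the set and for the lists of primary granule partners and of specific and gelatinase granules (x axis). Each of with EV and without EV has 1 colour, with whiskers of 1 SE and filled points for an adjusted p under 0.05. Chil3 at 5.25 and 5.26 and Mmp8 at 3.99 and 4.32 are the highest, and Nkg7 at -2.18 and -2.11 the lowest.

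Among 17 measured genes of early granulocyte progenitors, 7 were higher and 0 lower with EV than in non-cultured cells, and 6 higher and 1 lower without EV. Ly6c2, a surface protein of monocytes and young granulocytes, was higher by 1.36 with EV and 1.52 without EV. Plac8, a gene of myeloid progenitors, was higher by 0.67 with EV and 0.75 without EV. Anxa3, an annexin of neutrophil granules, had the smallest adjusted p of this list between EV and no EV. It was at 6.67, 6.14, 5.47, 5.52 and 5.31 with EV, against 4.67, 4.99, 4.91, 4.78 and 4.87 without EV. The groups did not overlap, but the difference of 0.98 did not pass over all genes (limma adjusted p = 0.252).

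Of the 9 measured C/EBP relatives and partners, 1 was higher and 3 lower with EV than in non-cultured cells, and 0 were higher and 4 lower without EV. Trib1, a pseudokinase that marks C/EBPα for degradation, was at 5.04, 5.46, 4.87, 5.36 and 5.38 with EV and at 5.52, 4.70, 5.28, 4.89 and 5.29 without EV, against 8.27, 8.34, 8.61, 7.47 and 7.66 in non-cultured cells. All 10 cultured arrays lay below all 5 non-cultured ones. The differences were -2.85 with EV and -2.93 without EV (limma adjusted p = 1.75e-07 and 1.15e-07). Ddit3, or CHOP, a stress-induced relative that blocks other C/EBP proteins, had differences of -1.19 with EV and -1.16 without EV, and its inducer Atf4 of -0.79 and -0.95 in the same order. Cebpa itself differed by -0.06 with EV and 0.06 without EV and was not called.

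Among the other C/EBP genes, Cebpg, a C/EBP protein that lacks an activation domain, was lower without EV than in non-cultured cells, at -0.45 (limma adjusted p = 0.0288). It was at 7.01, 7.07, 6.87, 6.83 and 6.78 with EV, against 6.33, 6.36, 6.59, 6.42 and 6.65 without EV. The groups did not overlap, and the difference of 0.44 did not pass over all genes (adjusted p = 0.461). Cebpd was higher with EV than in non-cultured cells, at 0.48 (adjusted p = 0.0391), and had a difference of 0.45 without EV (adjusted p = 0.0588). Cebpb, used in emergency granulopoiesis, had differences of 0.14 with EV and 0.31 without EV that did not pass (limma adjusted p = 0.429 and 0.0543). With non-cultured replicates 4 and 5 left out, the counts were 0 higher and 4 lower in both comparisons, with Trib2, another pseudokinase of the same family as Trib1, now among the lower ones at -0.59 in each. Neither Cebpg without EV (adjusted p = 0.169) nor Cebpd with EV (adjusted p = 0.196) then passed.

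Of 15 other transcription factors of granulocyte development, 2 were higher and 3 lower with EV than in non-cultured cells, and 2 higher and 1 lower without EV. Irf8, which favours monocytes over granulocytes, was higher by 1.80 with EV and 1.63 without EV, and Myb, which drives progenitor growth, by 0.41 and 0.48 in the same order. Gfi1, a repressor needed for neutrophils, differed by -0.02 with EV and -0.08 without EV, and Spi1, the gene of PU.1, by 0.32 and 0.29, and none of these 4 values passed. With non-cultured replicates 4 and 5 left out, 3 were higher and 2 lower with EV, and 4 higher and 1 lower without EV.

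Of 11 receptors for myeloid growth factors, 8 were higher and 0 lower with EV than in non-cultured cells, and 9 higher and 0 lower without EV. Il3ra, the alpha chain of the IL-3 receptor, was among those that did not pass. Its difference was -0.03 in each comparison (limma adjusted p = 0.934 with EV and 0.955 without EV). Ifngr1 did not pass in either comparison, at 0.17 with EV and 0.12 without EV (limma adjusted p = 0.566 and 0.765). Csf3r, the receptor for G-CSF, was at 7.95, 8.21, 8.23, 8.41 and 8.58 with EV and at 8.19, 8.51, 8.26, 8.80 and 8.42 without EV, against 7.54, 7.77, 7.57, 7.88 and 8.20 in non-cultured cells. Non-cultured replicate 5 reached the range of the cultured arrays, and the other 4 lay below all 10 of them. The differences were 0.48 with EV and 0.64 without EV (limma adjusted p = 0.0407 and 0.00779). Csf2rb2, a beta chain of the mouse IL-3 receptor, differed by 3.38 with EV and 3.81 without EV, and Csf1r, the M-CSF receptor, by 2.38 and 2.24 in the same order.

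Markers of other cell types were counted in the same comparisons. Among all genes 6.28% were higher and 7.85% lower with EV, and 6.75% higher and 6.88% lower without EV, in the fits on all arrays. In lists of 9 to 17 genes, a count of 1 lies near those shares. Of 17 measured monocyte and macrophage markers, 12 were higher and 1 lower with EV than in non-cultured cells, and 13 higher and 1 lower without EV. The mean level of that list was 6.76 to 7.06 with EV, 6.81 to 7.17 without EV and 5.71 to 6.03 in non-cultured arrays. Basophil, mast cell and eosinophil markers counted 1 higher and 0 lower of 11 with EV, and 3 higher and 1 lower without EV. Erythroid and megakaryocyte markers counted 1 higher and 1 lower of 9 with EV, and 2 higher and 1 lower without EV. Lymphoid markers counted 0 higher and 2 lower of 9 in each comparison. LSK markers counted 2 higher and 3 lower of 13 with EV, and 3 higher and 2 lower without EV. The LSK counts without non-cultured replicates 4 and 5 were 2 higher and 2 lower with EV, and 4 higher and 0 lower without EV. The mean level of the LSK list was 6.91 to 7.18 with EV, 7.16 to 7.26 without EV and 7.13 to 7.496 in non-cultured arrays. The mean level was 4.73 to 5.21 with EV, 4.82 to 5.23 without EV and 4.58 to 4.73 in non-cultured arrays for the basophil list. That of the lymphoid list was 4.65 to 5.05, 4.65 to 4.92 and 5.22 to 5.60 in the same order. Of 10 stromal markers, 4 were higher and 0 lower with EV, and 0 higher and 1 lower without EV, and with non-cultured replicates 4 and 5 left out the counts with EV were 1 and 1. The log2 values hold no 0, so no marker could be called absent. The part of these markers in the values of the granule genes was not tested.

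Between EV and no EV, 0 genes of these lists passed limma's test, except Cald1 among the stromal markers, higher by 0.68 with EV. At an unadjusted p under 0.05, 792 of 22180 genes were higher and 721 lower. Of the 10 stromal markers, 5 were higher and 0 lower at that threshold. Their mean level was 5.21 to 5.50 with EV and 5.02 to 5.18 without EV. The same count was 0 higher and 1 lower in the specific granule list, 1 higher and 0 lower among both the early progenitor genes and the C/EBP relatives, and 0 higher and 1 lower among the receptors. Among the LSK markers it was 0 higher and 2 lower, with differences of -0.34 for Esam, an adhesion molecule, and -0.36 for Mllt3, a chromatin factor (limma adjusted p = 0.524 and 0.717). In the other 6 lists it was 0 higher and 0 lower.

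After each value was set against its group mean, 40 of the 45 pairs of genes had a positive correlation over the 15 arrays, with a median r of 0.30 and a range from -0.49 to 0.88. That is 88.9% of the pairs, beside 50.9% of the pairs of all genes. Over the 13 arrays without non-cultured replicates 4 and 5, 19 of the 45 pairs were positive, beside 50.9% of those of all genes, and the median r was -0.051, so the shared variation rests on those 2 arrays. Over the 15 arrays Fcnb had an r of -0.067 with the mean of the other 9 genes, and the other 9 genes ran between 0.31 for Cebpe and 0.80 for Ngp. The arrays of a group share the mean removed from them, and the largest departures were those of non-cultured replicates 4 and 5. In non-cultured cells the mean of the 10 centred values was 0.36, 0.31 and 0.36 in replicates 1 to 3, and -0.38 and -0.64 in replicates 4 and 5. Those 2 arrays were the lowest of their group in 9 of the 10 genes, all but Fcnb, beside 13.9% of all genes. The mean level of the specific granule list was 5.41, 5.38, 5.38, 4.78 and 4.84 in non-cultured replicates 1 to 5. The LSK list ran the other way, at 7.16, 7.21, 7.13, 7.496 and 7.45 in the same arrays, and the lymphoid list was at 5.29, 5.22, 5.32, 5.60 and 5.45. Both of these lists were highest in replicates 4 and 5, and their part in the values of the 10 genes was not tested.

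The spread differed between the groups. The largest SD of a gene was found with EV for 4 genes, without EV for 1 and in non-cultured cells for 5. The SD of the 10 genes had a median of 0.374 with EV, of 0.174 without EV and of 0.385 for the non-cultured arrays, beside 0.211, 0.182 and 0.178 over all genes in the same order. The largest SD of the 10 genes was that of Cebpe with EV, at 0.65, that of Camp without EV, at 0.88, and that of Ngp in non-cultured cells, at 1.48. Ngp had an SD of 0.32 with EV and 0.43 without EV (n = 5 each).

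**Figure D4:**
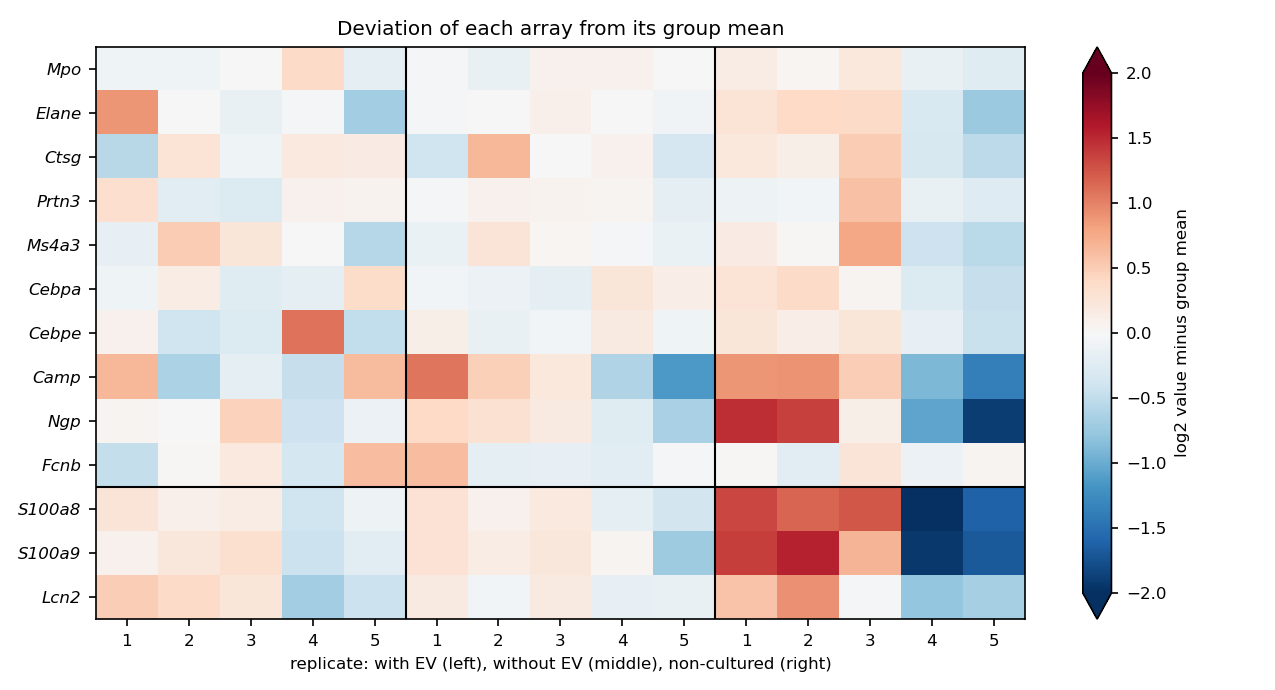
The difference of each array (columns) from the mean of its group is coloured for each of the 10 genes and for S100a8, S100a9 and Lcn2 (rows), in log2 units on a scale that ends at -2 and 2. Non-cultured replicates 4 and 5 are below their group mean in every row except that of Fcnb in replicate 5.

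Outside the set, the genes whose centred profile over the 15 arrays was most like the mean of the 10 were S100a8 (r = 0.93, Spearman's rho 0.85) and S100a9 (r = 0.92, rho 0.78). Next came Apol8 and F2r (r = 0.91 each), Odc1 (r = 0.91), Map3k7 (r = 0.90), Pik3ap1 (r = 0.90) and Itga3 (r = 0.90). Odc1 encodes ornithine decarboxylase and F2r a thrombin receptor. With non-cultured replicates 4 and 5 left out, r over 13 arrays was 0.81 for Odc1, 0.64 for S100a8 and 0.28 for Itga3, so these likenesses rest in part on those 2 arrays.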

How the data were processed

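Expression was measured in 15 samples, 5 per group, on 15 arrays. The values are those the authors deposited, and their range of 1.40 to 13.0 was read as log2, since no label states the base. MAS5 is the only tool that the submitters' processing notes name, with no role or version. How background was corrected and arrays were normalized is not given in the sources used here, and nothing was changed before the fit. Of 41345 probe sets, 23521 have 1 gene symbol, 1814 have several and 16010 are unnamed here, and the brightest probe set stood for a gene. Without a background value no gene could be called undetected, and the number of arrays limits the precision. No pair of the 105 pairs of arrays held identical values.

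A group-means model on all 15 arrays was fitted with limma 3.58.1 in R 4.3.3 (lmFit, eBayes), two-sided, with Benjamini-Hochberg adjustment over 22180 genes, and was tested on simulated data. Intervals are 95% intervals of single genes, not adjusted over genes. The genes and lists were chosen with earlier results of these data known. Named by rule are the 10 genes and, from each list of partners, up to 4 genes with the smallest adjusted p and a fixed set of 12 genes. Others were named outside that rule, among them Padi4, Il3ra, Ifngr1 and Trib2 of the partner lists and Cald1, Esam and Mllt3 of the marker lists. Alternatives were quantile normalization, median centring, leaving out the dimmest 40% of genes, all probe sets, only the groups compared, replicate number as a block, an intensity trend with robust moderation, each array left out in turn, and non-cultured replicates 4 and 5 left out. Reading the lists without those 2 arrays was chosen after seeing the data. In 9 of the 10 genes those 2 were the lowest arrays of their group, so leaving them out had to lower the differences from non-cultured cells. Calls gained or lost in that fit are therefore no independent check of these genes. The labels give no batch or date.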

Additional observations from a re-analysis of the deposited data

Results flagged for a closer look

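In 30 sets of 5 arrays (10 genes in 3 groups), 2 arrays stood apart from the other 4 of their group by Dixon's test, which chance alone flags in about 1 of 20 sets. Prtn3 was at 8.04 in non-cultured replicate 3, where the other 4 non-cultured arrays lay between 7.19 and 7.39. Without that array the Prtn3 difference of the group without EV from non-cultured cells was -0.36 (limma adjusted p = 0.0657). Fcnb was at 6.19 in replicate 1 without EV, where the other 4 lay between 5.34 and 5.54. Without that array the Fcnb difference from non-cultured cells was 0.59 (limma adjusted p = 0.0437).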

How the results depend on the processing

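Over the alternatives, 628 of the 680 fitted differences of single genes kept their direction and their side of the threshold, 18 lost and 15 gained the call, and 19 changed sign. For EV against no EV, 44 genes were called, and 29 to 53 with 1 array left out, and 0 of the 10 granule and C/EBP genes were called in any alternative. In cells without EV against non-cultured ones, 4 of these 10 were called, 2 to 4 with 1 array left out, and 2 with non-cultured replicates 4 and 5 left out. Over all 22180 genes 3022 were called, 2526 to 3332 with 1 array left out, and 1289 higher and 1310 lower without those 2 replicates. With EV against non-cultured cells, 1 of the 10 was called. This became 2 with quantile normalization, 2 with median centring and 4 without the dimmest 40% of genes. It was 1 to 3 with 1 array left out, and 3 with non-cultured replicates 4 and 5 left out. Over all genes 3135 were called, 2604 to 3177 with 1 array left out, and 1170 higher and 1528 lower without those 2 replicates. Leaving out the dimmest 40% also changed the genes tested. No share over all genes is given here for that fit or for quantile normalization, so those 2 counts are not read as a result about the 10 genes. Median centring also moved the split over all genes in that comparison to 996 higher and 2122 lower, against 1394 higher and 1741 lower in the values as deposited. The causes of these changes were not tested.

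Signs changed only among differences that were not called. With quantile normalization Ctsg was at 0.036 for EV against no EV and Cebpa at 0.0099 for EV against non-cultured cells. With non-cultured replicates 4 and 5 left out, Elane was at -0.25, Cebpa at -0.18, Cebpe at -0.067 and Camp at -0.051 without EV, and Camp at -0.36 with EV, against non-cultured cells. With 1 array left out, EV against no EV ran from -0.12 to 0.15 for Ctsg, from -0.014 to 0.14 for Prtn3 and from -0.019 to 0.13 for Mpo. Against non-cultured cells the group without EV ran from -0.079 to 0.21 for Elane and from -0.050 to 0.16 for Cebpa, and the group with EV from -0.17 to 0.040 for Cebpa.

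Groups share replicate numbers, and r of the 15 same-numbered pairs ran from -0.12 to 0.19. Of these, 1 was over 0.1, and 5 of 15 arrays were closest to an array of their own number. Between the groups with and without EV the same-numbered r was 0.19, 0.06, 0.04, 0.02 and 0.06, all positive. Pairs with non-cultured arrays had both signs, and the labels do not say whether arrays were paired. With the replicate number as a block, 39, 2987 and 3063 genes were called in the 3 comparisons in the order above, and 0, 3 and 3 of the 10 genes.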
